A study of Rattus norvegicus with 31 samples.

Results

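Gene expression in the gastrocnemius, a calf muscle made mostly of fast fibres, was compared between Ucp1 knockout rats held in the cold and Ucp1 knockout rats held at room temperature. The members were chosen by genotype and temperature alone: 15 of the 31 libraries of the study, 8 from knockouts kept at 4 °C for 14 days and 7 from knockouts kept at room temperature over the same period, with all genes. All rats were female Sprague Dawley, 7 months old and fed chow, so strain, sex, age and diet were shared by every group. The other 16 libraries came from wild-type controls, 8 in the cold and 8 at room temperature; they entered the estimate of the spread between animals and a closing comparison. Each animal gave 1 library of 3' tags of polyadenylated RNA. The labels give neither the allele nor the way the knockout was made, and name no litter, cage or batch. The level of Ucp1 is not analysed here, and the genotype is taken from the labels alone. Animals are called by group and by the number in their label, such as cold knockout 25.

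Ucp1 lets protons leak across the inner membrane of brown fat mitochondria and so turns fuel into heat. Animals without it still defend body temperature, and skeletal muscle contributes through shivering and through cycles that use ATP or a proton gradient without work, such as calcium pumping slipped by sarcolipin. Muscle also stores and burns fatty acids and glycogen, and its slow fibres, which carry their own set of contractile proteins, are used in sustained low-force activity.

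In knockouts the cold raised a set of genes that included Scd, Thrsp and Fasn of fatty acid synthesis, Crym, Ucp2, Bdh1 and, by less, 4 slow-fibre genes, and lowered a smaller set that included Dusp8, Rnf150, Mss51 and 3 transcripts of mitochondrial DNA. Of 10082 genes tested with edgeR's quasi-likelihood test, 139 (1.38%) passed a Benjamini-Hochberg adjusted p of 0.05, 103 higher in the cold (1.02%) and 36 lower (0.357%). A change of at least 2-fold was seen in 62 of them, 49 higher and 13 lower. In 36 of the 139 every cold knockout lay on one side of every room temperature knockout, 27 higher and 9 lower, while over all genes tested 55 (0.546%) were separated in this way. The number of calls depended on single libraries. It ran from 56 without room temperature knockout 14 to 230 without cold knockout 28, and it was 80, 86, 79 and 90 without cold knockout 30 and without room temperature knockouts 11, 13 and 9. Without room temperature knockout 15 the balance turned, with 72 genes higher and 92 lower. A fit to the 15 knockout libraries alone called 53 genes, 45 of them among the 139.

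**Figure D1:**
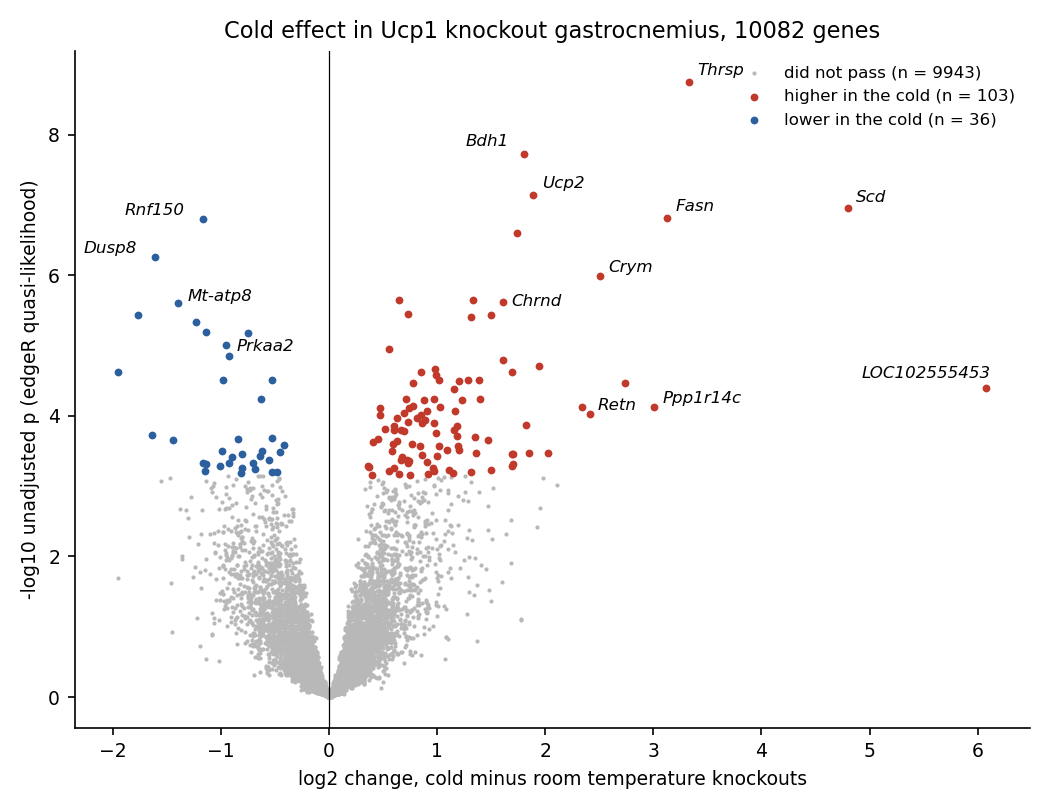
Volcano plot of the cold effect in knockouts, with the log2 change (cold minus room temperature knockouts) on the horizontal axis and -log10 of the unadjusted edgeR p on the vertical axis, 1 point per gene. The 103 higher genes (red) reach further than the 36 lower ones (blue), with Scd at 4.80 and Thrsp at the smallest p.

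The knockout libraries held 7.04 to 11.9 M counts, with means of 9.26 ± 1.29 M at room temperature and 10.02 ± 1.54 M in the cold (SD, n = 7 and 8). Of the muscle markers, 9 were tested and 1, Myh7, passed. Their sum was 100810 to 128777 counts per 1000000 counts of a library (CPM) at room temperature and 94587 to 145961 CPM in the cold. Skeletal muscle transcripts were thus abundant in all 15 libraries, though these markers cannot tell the gastrocnemius from other muscles. The main axis of variation, principal component 1 of the log2 levels, took up 35.3% of the variance and did not follow temperature: its lowest scores among knockouts belonged to room temperature knockouts 9 and 12 and cold knockouts 25 and 28. Transcripts encoded in mitochondrial DNA took 12.4 ± 1.59% of counts at room temperature and 9.43 ± 1.59% in the cold. Libraries of the same knockout group differed from each other by more than counting error. In bulk tissue, fewer cells of a type and less RNA per cell cannot be told apart.

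The 3 largest increases among genes that the naming rule covers were those of Scd, Thrsp and Fasn, which make fatty acids or promote their synthesis. Positions are those of RefSeq on the rat build GRCr8. Scd, the stearoyl-CoA desaturase that makes oleate (chromosome 1, 253218968 to 253232101), stood at 0 CPM in the lowest, 0.775 CPM in the median and 3.61 CPM in the highest room temperature knockout. In cold knockouts its level was 3.47, 39 and 76.3 CPM in the same order, a log2 change of 4.80 ± 0.71 (SE; adjusted p = 0.000268), or 27.9-fold. All cold knockouts but animal 29 lay above all room temperature knockouts. Thrsp, a nuclear factor that responds to thyroid hormone and carbohydrate and promotes lipogenesis (chromosome 1, 161134640 to 161138964), ran from 9.51 over 12.7 to 16.8 CPM at room temperature. In the cold it ran from 33.5 over 107 to 266 CPM (3.33 ± 0.40, adjusted p = 1.77e-05, 10.1-fold), and the groups did not overlap. Fasn, the fatty acid synthase (chromosome 10, 106570415 to 106588581), ran from 2.92 over 4.13 to 5.86 CPM and from 5.29 over 30.6 to 82.7 CPM (3.13 ± 0.47, adjusted p = 0.000268, 8.77-fold), with cold knockout 31 within the room temperature range. Acly, which splits citrate into cytosolic acetyl-CoA, rose from a median of 11.4 CPM (7.52 to 15.7) to 19.5 CPM (11.8 to 42.7), a log2 change of 0.97 ± 0.22 (adjusted p = 0.0199). Its groups overlapped, and it did not pass without room temperature knockout 14 (0.86, adjusted p = 0.068) or in the 15 knockout libraries alone (adjusted p = 0.104).

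The sequences 250 bases upstream of the start that the RefSeq promoter table of GRCr8 gives for the lipogenic genes that rose, where it holds them, are shown because these genes moved together. For Scd and Acly that start lies inside the gene's full extent, whose outer end is further upstream, so these windows do not precede the whole gene. The promoters of Scd and Thrsp follow from their being among the 3 named genes with the largest rise, and that of Acly was added after its values were seen. Fasn, the other of the 3, is named only. A script searched both strands for CCAAT (the NF-Y box), CACGTG (an E-box), TCACNCCAC (a sterol response element) and AGGTCA (a nuclear receptor half-site), and capitals mark the matches found.
Scd (GRCr8, minus strand, chr1:253231732-253231981): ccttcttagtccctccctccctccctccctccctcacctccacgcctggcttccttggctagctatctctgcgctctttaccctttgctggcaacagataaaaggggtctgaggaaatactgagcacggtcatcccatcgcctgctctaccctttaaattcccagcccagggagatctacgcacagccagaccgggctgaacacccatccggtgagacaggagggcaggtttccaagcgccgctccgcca
Thrsp (GRCr8, minus strand, chr1:161138965-161139214): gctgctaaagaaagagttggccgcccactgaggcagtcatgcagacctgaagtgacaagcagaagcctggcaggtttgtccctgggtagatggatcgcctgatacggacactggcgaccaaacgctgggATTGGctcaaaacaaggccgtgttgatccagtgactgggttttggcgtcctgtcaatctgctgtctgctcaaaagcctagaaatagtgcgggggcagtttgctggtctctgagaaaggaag
Acly (GRCr8, minus strand, chr10:85963632-85963881): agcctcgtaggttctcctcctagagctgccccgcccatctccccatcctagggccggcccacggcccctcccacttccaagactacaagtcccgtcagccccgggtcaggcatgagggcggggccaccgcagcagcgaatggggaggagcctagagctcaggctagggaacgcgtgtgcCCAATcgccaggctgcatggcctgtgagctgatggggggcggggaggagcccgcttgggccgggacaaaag
Of the 4 motifs, CCAAT alone was matched: on the reverse strand of Thrsp, 121 bases before the start, and on the forward strand of Acly, 71 bases before it. The same window held CCAAT in 34.3% of 27457 RefSeq promoters, CACGTG in 5.79%, TCACNCCAC in 0.976% and AGGTCA in 13.7%. No other match lay in these windows, and the Scd window held none of the 4.

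The rise was not shared by all tested genes of the pathway. Only 12 of 17 listed genes were tested, and Acaca, an acetyl-CoA carboxylase gene, was removed by the filter on low counts. Of 12 lipogenesis genes tested, 4 rose (Scd, Thrsp, Fasn and Acly), 0 fell and 8 did not pass. Above 0 were 10 of 12 changes, and the median was 0.50 against 0.02 over all genes. All gene lists were drawn up with earlier results of these data known. Counts of passing members therefore describe the lists and do not test them. Over all genes tested 1.38% passed, and 53.4% of changes were above 0. Acacb, the acetyl-CoA carboxylase that prevails in muscle and makes malonyl-CoA at the mitochondrion, stood at a median of 287 CPM at room temperature and 349 CPM in the cold (0.19 ± 0.17, adjusted p = 0.708). Srebf1, the transcription factor of lipogenic genes, went from a median of 45.1 to 54.6 CPM (0.51 ± 0.35, adjusted p = 0.556). Me1, the malic enzyme that supplies NADPH, went the other way, from 249 to 208 CPM (-0.26 ± 0.13, adjusted p = 0.346). Acacb, Srebf1 and Me1 were picked for mention after their values were seen. Slc25a10, the mitochondrial dicarboxylate carrier and likewise picked afterwards, rose from a median of 2.25 CPM (0.847 to 3.69) to 4.92 CPM (2.41 to 10.3), by 1.17 ± 0.26 (adjusted p = 0.016), though not in the 15 knockout libraries alone (adjusted p = 0.113).

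Neighbouring lipid lists held no passing gene. Of 10 triglyceride synthesis genes 0 passed, with a median of 0.34; Dgat2, which adds the last acyl chain, came nearest (0.61 ± 0.17, adjusted p = 0.0603). None of 20 fatty acid oxidation genes passed, with a median of 0.08, and Cpt1b, the muscle gatekeeper of mitochondrial fatty acid entry, ran from 593 to 860.3 CPM at room temperature and from 695 to 1158 CPM in the cold (0.39 ± 0.16, adjusted p = 0.235). Of 14 genes of lipid uptake and droplets and of 15 of cholesterol synthesis 0 passed, with medians of 0.23 and 0.13. The split between fatty acid synthesis and these lists is visible in the plot of list members.

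**Figure D2:**
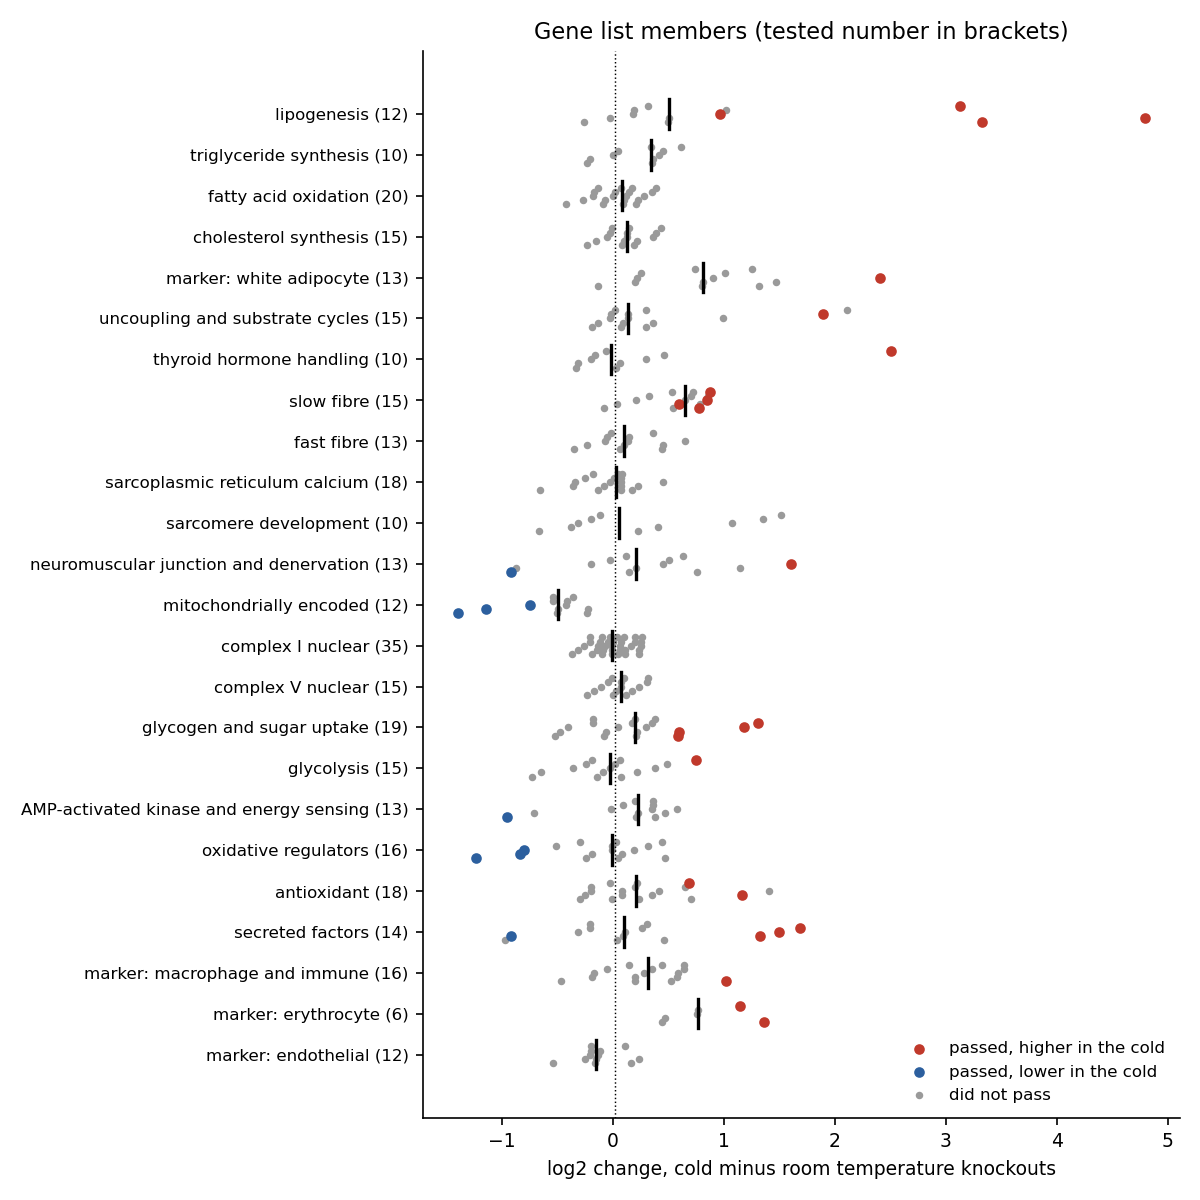
Log2 change (cold minus room temperature knockouts) of each tested member of 24 gene lists, 1 point per gene, with the number tested in brackets, the list median as a bar and the median over all genes, 0.02, as a dotted line. Lipogenesis holds 3 of the 4 largest rises shown, slow fibre members lie mostly right of the dotted line, and all 12 mitochondrially encoded transcripts lie left of it.

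The lipogenic rise differed widely among cold knockouts. Thrsp was 266 and 264 CPM in cold knockouts 28 and 25 but 35 and 33.5 CPM in cold knockouts 24 and 31. Across the 8 cold knockouts log2 Thrsp followed log2 Fasn (Pearson r = 0.89, permutation p = 0.00461, adjusted 0.0138; Spearman rho = 0.95, p = 0.00114, adjusted 0.00513) and log2 Acly (r = 0.92, p = 0.00151, adjusted 0.0133; rho = 0.98, p = 0.000397, adjusted 0.00357), by exact permutation tests over 9 relations. Without the 2 animals farthest from the median of Thrsp, cold knockouts 24 and 31, r was 0.88 and 0.84 (n = 6). Scd was less tightly tied (r = 0.73, p = 0.0486, adjusted 0.0729; rho = 0.55, p = 0.171, adjusted 0.22; exact permutation, n = 8), being highest in cold knockout 26 at 76.3 CPM. Ucp2 did not follow Thrsp (r = 0.01, p = 0.985; rho = 0.12, p = 0.793; exact permutation, n = 8). Cold knockouts 25 and 28, with the highest Thrsp, also had the lowest scores of their group on the first principal component. Log2 Thrsp ran against that score (Pearson r = -0.82, p = 0.0144, adjusted 0.0324, exact permutation, n = 8). Spearman rho was -0.81 (p = 0.0218, adjusted 0.049, exact permutation), and r was -0.87 without cold knockouts 24 and 31 (n = 6). Without the 7 lowest-scoring libraries of the study, 4 of them knockouts, Scd, Thrsp, Fasn and Acly still passed, at 4.64, 2.71, 2.51 and 0.73 (adjusted p = 0.00783, 0.000803, 0.0168 and 0.0458). The folds of Thrsp and Fasn were then smaller by over 1.5 times.

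Of the white adipocyte markers, Retn alone passed. Of 13 tested 1 rose, the gene of the hormone resistin, while 1.02% of all genes tested passed as higher. Above 0 were 12 of 13 changes, against 53.4% over all genes tested. The median of the markers was 0.81 and none of them was at 0 counts throughout. Their summed level was 838 to 1730.1 CPM at room temperature and 1313 to 3826 CPM in the cold. Retn went from a median of 9.39 CPM (5.77 to 24.8) to 51.2 CPM (18.6 to 117), by 2.41 ± 0.54 (adjusted p = 0.0169), with overlap, and did not pass without room temperature knockout 14 (2.30, adjusted p = 0.0573). Adipoq, the adipocyte hormone adiponectin, ran from 12.2 to 20.6 CPM and from 17.7 to 94.2 CPM (1.47 ± 0.48, adjusted p = 0.109). It was highest in cold knockouts 30 and 26, at 94.2 and 76 CPM, and not in the animals with the highest Thrsp. Scd was highest in cold knockout 26, at 76.3 CPM, and its relation to Adipoq was not tested. Within cold knockouts Retn followed Thrsp (r = 0.92, adjusted p = 0.0133; rho = 0.83, adjusted p = 0.0461; exact permutation, n = 8; r = 0.83 without the 2 animals farthest from the median), while Adipoq (r = 0.62, adjusted p = 0.129; rho = 0.60, adjusted p = 0.198) and the droplet coat protein Plin1 (r = 0.77, adjusted p = 0.0553; rho = 0.76, adjusted p = 0.0662) did not pass. With the log2 sum of Adipoq, Plin1 and Cidec as a covariate, an alternative chosen after seeing the data, Scd (3.05, adjusted p = 0.00629), Thrsp (2.77, adjusted p = 1.14e-05), Fasn (2.62, adjusted p = 0.00152) and Acly (0.999, adjusted p = 0.0119) passed and Retn did not (0.98, adjusted p = 0.101). The slope of this covariate was fitted over all 31 libraries. Among these, room temperature controls 1 and 2 stood at 1.13 and 0.73 CPM, and the next library at 15.6 CPM. The sum itself differed between the knockout groups, with a mean of 25.5 CPM at room temperature and 68 CPM in the cold. The fit therefore cannot separate the cold from adipocyte content, and the share that adipocytes had in these rises was not tested. Brown adipocyte markers were 3 tested genes of 10 listed, with 0 passing and a median of 0.03.

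**Figure D3:**
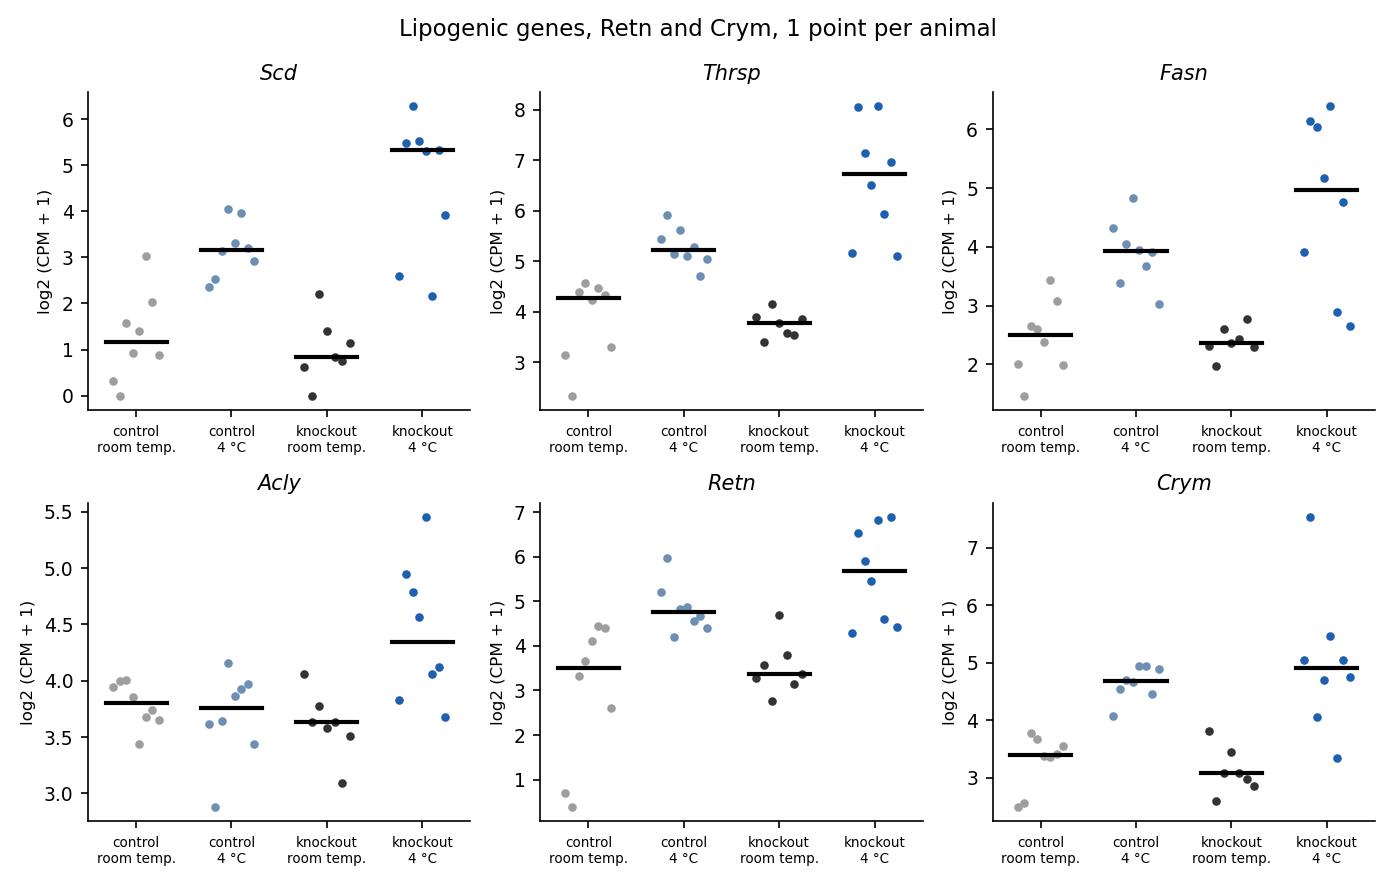
Levels of Scd, Thrsp, Fasn, Acly, Retn and Crym as log2 (CPM + 1) on the vertical axis, 1 point per animal in the 4 groups, with group medians as bars; the vertical scale differs between panels. Cold knockouts spread widely, with Thrsp from 33.5 to 266 CPM, and room temperature knockouts lie between 9.51 and 16.8 CPM for that gene.

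Crym, the cytosolic protein that binds thyroid hormone, rose in the cold. It ran from 5.08 over 7.45 to 13 CPM at room temperature and from 9.12 over 29.1 to 183 CPM in the cold (2.51 ± 0.42, adjusted p = 0.00116). Cold knockout 25 held the highest value, the next was 43.1 CPM in cold knockout 28, and only cold knockout 29 fell within the room temperature range. Without cold knockout 25 the change was 1.72 (adjusted p = 0.000526). Crym was the 1 of 10 thyroid hormone genes that passed; the list median was -0.02, and Klf9, a target of the hormone's receptor, stood at 378 and 444 CPM in the median animals (0.46 ± 0.22, adjusted p = 0.329).

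Among genes of uncoupling and substrate cycles, Ucp2 rose and 14 of 15 did not pass. Ucp2, a mitochondrial carrier of the same family as Ucp1 (chromosome 1, 164251373 to 164257742), ran from 5.45 over 6.13 to 9.69 CPM at room temperature and from 10.1 over 24.1 to 45.2 CPM in the cold (1.89 ± 0.27, adjusted p = 0.00024). The groups did not overlap, and it passed in all 15 fits that left out 1 knockout library. Sln, sarcolipin, the small inhibitor of the calcium pump, ran from 3.46 over 8.88 to 24.8 CPM and from 14.6 over 63 to 111 CPM (2.11 ± 0.58, adjusted p = 0.057). Cold knockouts 24, 26, 29, 30 and 31 lay above all room temperature knockouts, and cold knockouts 25, 27 and 28 lay within their range. Without the 7 libraries that scored lowest on the first component Sln passed (2.09, adjusted p = 0.0362). Gk, glycerol kinase, had medians of 2.2 and 5.32 CPM and missed the threshold (0.99 ± 0.28, adjusted p = 0.0615). Ucp3, the uncoupling protein of muscle, ran from 52.2 to 278 CPM and from 69 to 279 CPM (-0.13 ± 0.33, adjusted p = 0.928).

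The rise of slow-fibre genes stayed under 2-fold. Of 15 tested 4 rose and 0 fell, 14 of 15 changes were above 0, and the median was 0.65. Among all genes tested 1.02% passed as higher in the cold and 53.4% of changes were above 0. Only 13 of 16 listed fast-fibre genes were tested, with Myh1 the only myosin heavy chain among them. Of these 13 fast-fibre genes 0 passed and the median was 0.10. Myh7, the slow myosin heavy chain (chromosome 15, 32416525 to 32439851), ran from 1712 over 2353 to 2655 CPM at room temperature and from 2586 over 4069.5 to 5085 CPM in the cold (0.78 ± 0.16, adjusted p = 0.00898). Only cold knockout 31 fell within the room temperature range. Myoz2, a slow-fibre protein of the Z-disc, ran from 317 to 506 CPM and from 496 to 933 CPM (0.85 ± 0.17, adjusted p = 0.00829). Atp2a2, which pumps calcium into the reticulum of slow fibres, ran from 415 to 776 CPM and from 421 to 1601 CPM (0.88 ± 0.19, adjusted p = 0.0131), with cold knockout 31 far below the others. It did not pass without room temperature knockout 14 (0.79, adjusted p = 0.0573). Tnni1, the slow troponin I, ran from 669 to 918 CPM and from 838 to 1339.6 CPM (0.60 ± 0.14, adjusted p = 0.0212), and its call was lost without room temperature knockout 14 (0.54, adjusted p = 0.0789), room temperature knockout 15 (0.55, adjusted p = 0.0503) or cold knockout 30 (0.56, adjusted p = 0.0505). Mb, the oxygen store myoglobin, did not pass (0.70 ± 0.19, adjusted p = 0.0565).

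Other sarcomere genes were mixed. Tnni3, the cardiac troponin I, named after its values were seen, was near the limit of detection at room temperature, 0.0977 to 0.842 CPM, and stood at 0.977 to 4.03 CPM in the cold (2.74 ± 0.57, adjusted p = 0.00898), without overlap. Mybpc1, the slow myosin-binding protein C and also picked afterwards, rose from a median of 821 to 1132 CPM (0.47 ± 0.10, adjusted p = 0.0151); it did not pass without room temperature knockout 14 (0.41, adjusted p = 0.0702) or cold knockout 29 (0.41, adjusted p = 0.052). Of 10 genes of sarcomere development 0 passed, and Myh3, the embryonic myosin heavy chain, stood at medians of 7.25 and 26 CPM (1.52 ± 0.42, adjusted p = 0.0584). None of 18 genes of calcium handling in the sarcoplasmic reticulum passed (median 0.03), and Ryr1, the calcium release channel, ran from 672 to 1226 CPM and from 510.3 to 1304 CPM (-0.13 ± 0.22, adjusted p = 0.869).

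At the neuromuscular junction a receptor subunit rose and a neurotrophin fell. Chrnd, a subunit of the acetylcholine receptor under the motor nerve ending, ran from 24.2 over 37.3 to 56.8 CPM at room temperature and from 42.9 over 103 to 231 CPM in the cold (1.61 ± 0.28, adjusted p = 0.00195). Its highest values were in cold knockouts 28 and 25, and cold knockouts 29 and 31 lay within the room temperature range. Ntf4, neurotrophin 4, fell from 2.21 to 4.21 CPM to 1.3 to 2.11 CPM (-0.92 ± 0.18, adjusted p = 0.00622) with no overlap. These were the 2 passing genes of 13 in the list, whose median was 0.21, while 1.38% of all genes tested passed. Ache, acetylcholinesterase, which ends the signal, stood at medians of 8.27 and 3.90 CPM and did not pass (-0.87 ± 0.28, adjusted p = 0.107). Prima1, which anchors that enzyme in membranes, rose from a median of 15.4 to 33.4 CPM (1.11 ± 0.29, adjusted p = 0.0464) but passed in only 3 of 15 fits that left out 1 library, with adjusted p up to 0.0958.

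All 12 measured transcripts of mitochondrial DNA had changes below 0, with a median of -0.50. Of these 3 fell, 0 rose and 9 did not pass. Among all genes tested 0.357% passed as lower in the cold and 53.4% of changes were above 0. Mt-atp8, a subunit of ATP synthase, ran from 1353 over 1916 to 3240.0 CPM at room temperature and from 514 over 684 to 1174 CPM in the cold (-1.40 ± 0.25, adjusted p = 0.00195), 2.64-fold lower and without overlap. Mt-nd4l, a subunit of complex I, ran from 102 to 231 CPM and from 43.7 to 94.3 CPM (-1.14 ± 0.21, adjusted p = 0.00338), also without overlap. Mt-nd5, of the same complex, ran from 951 to 1659 CPM and from 495 to 1001 CPM (-0.75 ± 0.14, adjusted p = 0.00338), with cold knockout 27 within the room temperature range. All 3 passed in every fit that left out 1 knockout library. Mt-atp6, named for contrast after its values were seen, lies beside Mt-atp8 on the same strand and overlaps it. It was far more abundant, 33595 to 60919 CPM and 26197 to 57491 CPM (-0.23 ± 0.15, adjusted p = 0.531). Mitochondrial mRNAs share long precursors, the strand setting of the counts is not given in the sources used here, and reads of overlapping genes cannot be told apart. Of the nuclear genes of complex I 35 were tested and of complex V 15, and 0 passed, with medians of -0.01 and 0.07.

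**Figure D4:**
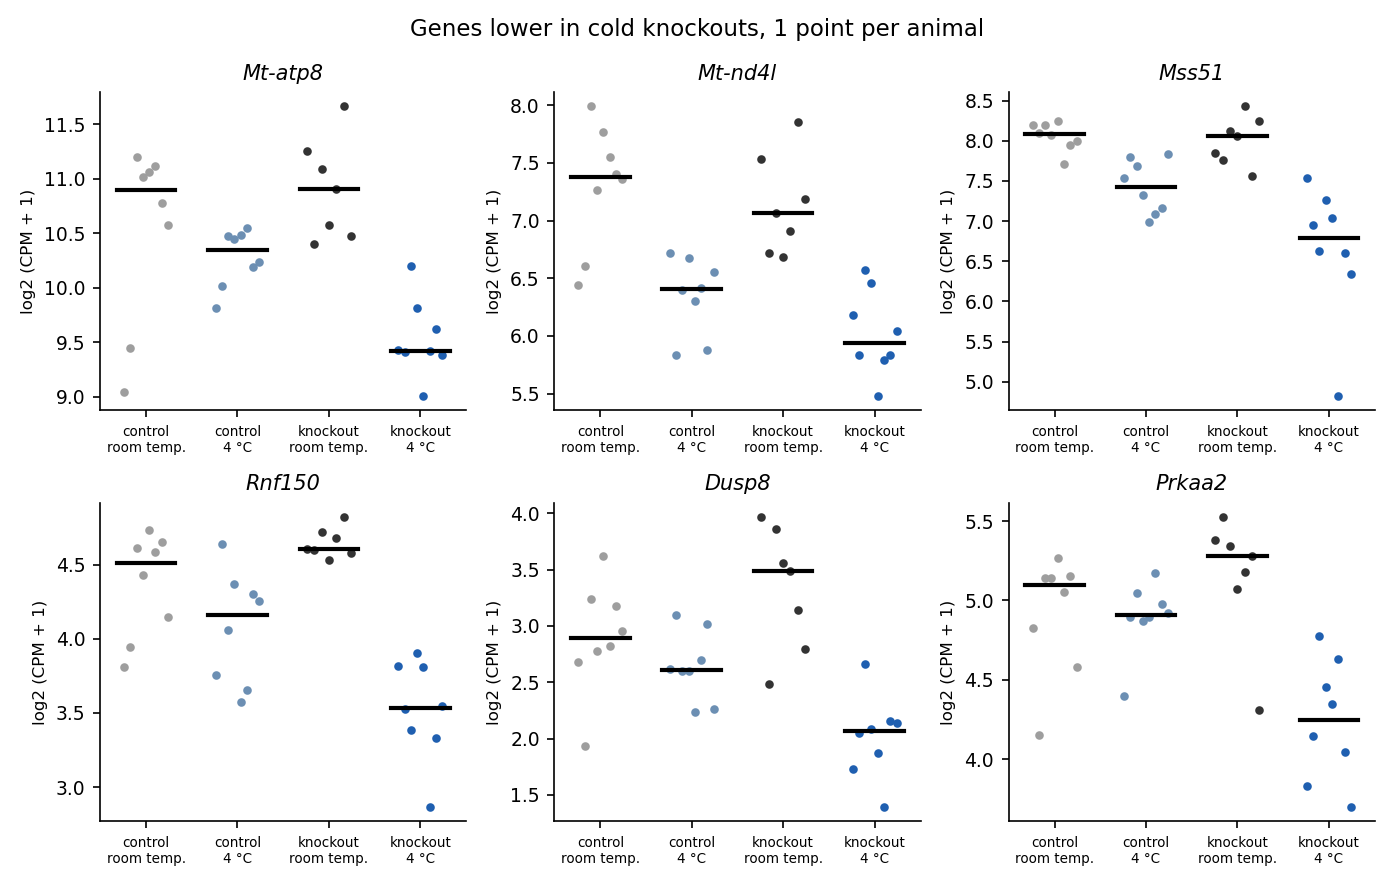
Levels of Mt-atp8, Mt-nd4l, Mss51, Rnf150, Dusp8 and Prkaa2 as log2 (CPM + 1) on the vertical axis, 1 point per animal in the 4 groups, with group medians as bars; the vertical scale differs between panels. In knockouts the cold and room temperature groups do not overlap for Mt-atp8, Mt-nd4l, Mss51 and Rnf150.

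Regulators of oxidative metabolism, a list drawn up with earlier results known, fell in 3 of 16 cases and rose in none, with a list median of -0.01. Over all genes tested 0.357% passed as lower in the cold. Mss51, a muscle protein located at mitochondria (chromosome 15, 3855094 to 3868614), ran from 188 over 266 to 343 CPM at room temperature and from 27.4 over 111 to 184 CPM in the cold (-1.23 ± 0.22, adjusted p = 0.00259). The groups did not overlap, cold knockout 29 was lowest by far, and the call was lost in the 15 knockout libraries alone (-1.22, adjusted p = 0.0517). Lcor, a nuclear receptor corepressor (-0.84 ± 0.20, adjusted p = 0.0275), and Med13, a subunit of the Mediator kinase module (-0.80 ± 0.21, adjusted p = 0.045), were the other two. Lcor passed in 10 and Med13 in 4 of 15 fits that left out 1 library, with adjusted p up to 0.0698 and 0.0872. Ppargc1a, the coactivator of mitochondrial genes, ran from 1.79 to 3.73 CPM and from 1.4 to 3.12 CPM (-0.51 ± 0.32, adjusted p = 0.5).

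Of the subunits of AMP-activated kinase, the energy sensor of the cell, 1 catalytic subunit fell. Prkaa2, the catalytic alpha 2 subunit that prevails in muscle (chromosome 5, 125036945 to 125109010), ran from 18.8 over 37.9 to 45 CPM at room temperature and from 12 over 18.1 to 26.4 CPM in the cold (-0.95 ± 0.18, adjusted p = 0.00472). It passed in all 15 fits that left out 1 library, and room temperature knockout 15 was the only animal of its group within the cold range. It was the 1 passing gene of 13 in the list, whose median was 0.23. The alpha 1 subunit Prkaa1 (0.36 ± 0.13, adjusted p = 0.166) and the beta 1 subunit Prkab1 (0.38 ± 0.12, adjusted p = 0.0896) had changes of the other sign and did not pass.

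Rnf150, Dusp8 and Sos1 also fell. Rnf150, a RING finger protein (chromosome 19, 41912276 to 42133217), held within 22.1 and 27.2 CPM at room temperature and ran from 6.3 over 10.6 to 14 CPM in the cold (-1.16 ± 0.17, adjusted p = 0.000268). Dusp8, a phosphatase of stress-activated kinases, ran from 4.61 over 10.2 to 14.6 CPM and from 1.63 over 3.19 to 5.33 CPM (-1.61 ± 0.26, adjusted p = 0.000689), with cold knockout 26 above room temperature knockout 10. Sos1, the exchange factor that loads Ras, ran from 10.2 to 13 CPM and from 7.03 to 8.92 CPM (-0.53 ± 0.11, adjusted p = 0.0089), without overlap. All 3 passed without any single knockout library and in all 11 other settings tried. Eif2ak1, the heme-regulated kinase that slows translation, fell by 0.63 ± 0.14 on the log2 scale (adjusted p = 0.0131), not in the 15 knockout libraries alone (adjusted p = 0.085).

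Less firm decreases were those of the potassium channel Kcna7 (-0.92 ± 0.24, adjusted p = 0.0414), the linker histone Hist1h1e (-1.16 ± 0.30, adjusted p = 0.0414) and Esr1, the oestrogen receptor alpha (-1.64 ± 0.39, adjusted p = 0.0253). Kcna7 passed in 4 and Hist1h1e in 5 of 15 fits that left out 1 library. Esr1, named after its values were seen, stood at 0.962 to 3.49 CPM and at 0.135 to 1.65 CPM, and lost its call without cold knockout 25 (-1.53, adjusted p = 0.0533), room temperature knockout 13 (-1.44, adjusted p = 0.0748) or room temperature knockout 14 (-1.61, adjusted p = 0.0594).

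Sugar and glycogen genes, a list drawn up with earlier results known, rose in 4 of 19 cases, with a list median of 0.20. Over all genes tested 1.02% passed as higher in the cold. Slc2a5, the fructose transporter, ran from 1.68 over 3.03 to 5.09 CPM at room temperature and from 5.9 over 6.92 to 12.6 CPM in the cold (1.31 ± 0.23, adjusted p = 0.00234), without overlap. Khk, which phosphorylates fructose, ran from 0.488 to 2.64 CPM and from 2.11 to 5.43 CPM (1.18 ± 0.27, adjusted p = 0.0212). It did not pass without room temperature knockout 11 (1.15, adjusted p = 0.0504) or 14 (0.998, adjusted p = 0.0603). Gbe1, the glycogen branching enzyme (0.60 ± 0.14, adjusted p = 0.0229), and Phka1, the muscle alpha subunit of phosphorylase kinase (0.59 ± 0.14, adjusted p = 0.0301), passed in 10 and 7 of 15 fits that left out 1 library. Cold knockout 29 stood apart for Gbe1, at 236 CPM against 165 CPM in the next animal. Of 15 glycolysis genes 1 rose, Ldhb, the lactate dehydrogenase subunit of oxidative tissue (0.75 ± 0.20, adjusted p = 0.0499), which passed in 1 of 15 such fits. Pdk4, which shuts pyruvate oxidation, ran from 0.941 to 8.42 CPM and from 1.3 to 5.01 CPM (-0.91 ± 0.42, adjusted p = 0.306).

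Bdh1, the mitochondrial enzyme that interconverts the ketone bodies, had the second smallest p of all genes and was named after its values were seen, since its level is low. It ran from 0.632 over 1.8 to 2.92 CPM at room temperature and from 4.09 over 6.12 to 7.98 CPM in the cold (1.80 ± 0.24, adjusted p = 9.7e-05). Every cold knockout lay above every room temperature knockout.

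Mthfd2, an enzyme of mitochondrial folate metabolism, was the 1 of 12 serine and one-carbon genes that passed (1.40 ± 0.30, adjusted p = 0.0131), from 0.388 to 1.54 CPM to 1.57 to 4.02 CPM, without overlap. It was lost in the 15 knockout libraries alone (adjusted p = 0.0604) and without the 7 libraries that scored lowest on the first component (1.38, adjusted p = 0.0505). Fah, the last enzyme of tyrosine breakdown, picked afterwards, ran from 1.03 to 3.84 CPM and from 2.61 to 9.54 CPM (1.50 ± 0.27, adjusted p = 0.00234), with overlap. Bcat1, which removes the amino group of branched-chain amino acids and was picked afterwards too, rose by 1.16 ± 0.27 (adjusted p = 0.0229), not without room temperature knockout 11 (1.03, adjusted p = 0.0625) or 13 (1.14, adjusted p = 0.0505). Slc1a5, a glutamine transporter, stood at 10.2 to 18 CPM and at 18.1 to 61.8 CPM (1.31 ± 0.35, adjusted p = 0.0484). Although its groups did not overlap, it passed in only 2 of 15 fits that left out 1 library.

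Zinc transporters and a phosphatase inhibitor were among the larger rises, and some of these calls were lost without 1 animal. Ppp1r14c, an inhibitor of protein phosphatase 1, ran from 0.096 to 2.17 CPM at room temperature and from 1.63 over 3.24 to 44.8 CPM in the cold (3.005 ± 0.66, adjusted p = 0.0151). Its highest value was that of cold knockout 29, without which it did not pass (1.83, adjusted p = 0.0723). Slc30a2, a zinc transporter, stood at 39.5 and 17.4 CPM in cold knockouts 29 and 31 and at 1.81 to 4.39 CPM in the other six, against 0.864 to 4.05 CPM at room temperature (2.34 ± 0.52, adjusted p = 0.0151); it did not pass without cold knockout 29 (1.49, adjusted p = 0.0593) or room temperature knockout 14 (2.22, adjusted p = 0.0534). Slc30a3, a related transporter, ran from 3.13 to 13.7 CPM and from 12.3 to 45.2 CPM (1.35 ± 0.32, adjusted p = 0.0262). Its call was lost without cold knockout 25 (1.15, adjusted p = 0.0622) or room temperature knockouts 14 (1.17, adjusted p = 0.0702) or 9 (1.31, adjusted p = 0.0546). Ctxn3, a small membrane protein, was highest in cold knockouts 29 and 26 at 38.2 and 32.8 CPM and ran from 2.84 to 5.41 CPM at room temperature (1.94 ± 0.39, adjusted p = 0.00781), and it passed in all 15 fits that left out 1 library.

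Antioxidant genes rose in 2 of 18 cases, with a list median of 0.21, while 1.02% of all genes tested passed as higher in the cold. Hmox1, the heme oxygenase, ran from 11.3 over 16 to 24.4 CPM at room temperature and from 21.2 over 29.8 to 86 CPM in the cold (1.16 ± 0.24, adjusted p = 0.0104). Gpx1, a glutathione peroxidase, ran from 297 to 419.6 CPM and from 433 to 855 CPM (0.69 ± 0.15, adjusted p = 0.0165), without overlap; it did not pass without room temperature knockout 14 (0.62, adjusted p = 0.067). Rbm3, an RNA-binding protein induced by mild cold in cells, ran from 32 over 40.4 to 70.7 CPM and from 47.9 over 78.6 to 224 CPM (1.23 ± 0.27, adjusted p = 0.0131), and was highest in cold knockouts 29 and 31. Hmox1 and Rbm3 did not pass in the 15 knockout libraries alone (adjusted p = 0.0747 and 0.076). Of 20 heat shock genes 0 passed (median -0.04), and of 18 endoplasmic reticulum stress genes 1 rose, the chaperone cofactor Sdf2l1 (0.74 ± 0.19, adjusted p = 0.0402), in 6 of 15 fits that left out 1 library.

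Of 14 secreted factors 3 rose and 1, Ntf4, fell, while 1.02% of all genes tested passed as higher and 0.357% as lower. Agt, the precursor of angiotensin, ran from 3.2 over 6.85 to 10.4 CPM at room temperature and from 11.6 over 20.9 to 39.4 CPM in the cold (1.69 ± 0.34, adjusted p = 0.00829), without overlap. Enho, which encodes the peptide adropin, ran from 3.48 to 7.06 CPM and from 3.37 to 18 CPM (1.33 ± 0.23, adjusted p = 0.00195). Cold knockout 29 lay below every room temperature knockout, and the other seven cold animals lay above all of them. Bdnf, a neurotrophin made by contracting muscle, ran from 0.303 to 0.962 CPM and from 0.92 to 3.47 CPM (1.50 ± 0.39, adjusted p = 0.0464) and passed in 3 of 15 fits that left out 1 library.

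Markers of blood and immune cells were also higher in some animals. Of 16 macrophage and immune markers 1 rose, Cd163, the haemoglobin scavenger receptor of resident macrophages, from 14.9 to 25 CPM to 20.02 to 52.4 CPM (1.02 ± 0.21, adjusted p = 0.0089). Above 0 were 12 of 16 changes. Among all genes tested 1.02% passed as higher and 53.4% of changes were above 0. The median of the markers was 0.31, and their summed level ran from 323 to 609 CPM and from 447 to 668 CPM. S100a4, of migrating and stromal cells, rose by 0.91 ± 0.20 (adjusted p = 0.016), not without room temperature knockout 14 (0.85, adjusted p = 0.0573). Gpnmb, of lipid-laden macrophages, stood at 149 CPM in cold knockout 29 and rose by 1.47 ± 0.35 (adjusted p = 0.0275), but not without that animal (0.93, adjusted p = 0.0906) and in 9 of 15 such fits. Cst7, a cysteine protease inhibitor of immune cells, ran from 2.93 to 7.09 CPM and from 6.45 to 28.6 CPM (1.61 ± 0.32, adjusted p = 0.00669). The share that immune cells had in these changes was not tested.

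Of 6 erythrocyte markers 2 rose, all 6 changes were above 0 and the median was 0.77. Among all genes tested 1.02% passed as higher and 53.4% of changes were above 0. The summed level of these markers was 351 to 1556 CPM at room temperature and 638 to 3131 CPM in the cold. Alas2, which starts heme synthesis in red cell precursors, ran from 0.0941 to 1.8 CPM and from 1.43 to 5 CPM (1.36 ± 0.34, adjusted p = 0.0346) and passed in 9 of 15 fits that left out 1 library. The beta globin row that the deposited table names LOC689064, Hbb-b1 by its gene number in RefSeq, ran from 94.2 to 469 CPM and from 190.3 to 1101 CPM (1.15 ± 0.30, adjusted p = 0.0484), in 5 of 15 such fits. Globin copies are near-identical, so reads may have been assigned to another copy.

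Of 27 extracellular matrix genes 1 rose, Bgn, the small proteoglycan biglycan (0.995 ± 0.25, adjusted p = 0.0357), in 5 of 15 fits that left out 1 library; the median was 0.08. Prg4, the lubricating proteoglycan of tendon and joint, ran from 13.1 to 18.9 CPM and from 17.3 to 48.8 CPM (0.99 ± 0.23, adjusted p = 0.0243), and lost its call without cold knockouts 29 (0.85, adjusted p = 0.0661) or 31 (0.87, adjusted p = 0.0634) or room temperature knockouts 13 (0.99, adjusted p = 0.0505) or 14 (0.96, adjusted p = 0.0644). Sdc4, a syndecan of satellite cells and fibroblasts, was the 1 of 4 satellite cell markers that rose (0.73 ± 0.17, adjusted p = 0.0198). It did not pass without cold knockout 29 (0.57, adjusted p = 0.0589) or room temperature knockouts 13 (0.69, adjusted p = 0.0543) or 14 (0.65, adjusted p = 0.0673). Endothelial (12), fibroblast and tendon (11), smooth muscle (10), Schwann cell (7) and neutrophil (2) markers held 0 passing genes, with medians of -0.15, 0.16, -0.04, -0.03 and 1.82.

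Of the 139 calls, 47 passed in every fit that left out 1 knockout library, and 23 passed in those and in all 11 other settings, 16 higher and 7 lower. A setting among the 11 kept only genes with a mean of at least 5 CPM. Genes below that level could therefore not be among the 23. Beside genes already named, the 23 included Parm1, a mucin-like membrane protein (0.99 ± 0.20, adjusted p = 0.00889), Smarcd2, a subunit of SWI/SNF chromatin remodelling (0.65 ± 0.11, adjusted p = 0.00195), and Bud31, a splicing factor (0.73 ± 0.13, adjusted p = 0.00234). Smarcd2 ran from 49.3 to 74.4 CPM at room temperature and from 77.1 to 114 CPM in the cold. Bud31 ran from 40.2 to 52.2 CPM and from 53.3 to 107 CPM. Neither overlapped. Abcg2, an efflux pump named after its values were seen, rose from 1.05 to 1.63 CPM to 2.27 to 5.32 CPM (1.20 ± 0.25, adjusted p = 0.0089), also without overlap.

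The largest fitted change of all was in a row named LOC102555453, one of 2 rows with that name, described in RefSeq as similar to a ribosomal protein and singled out after its values were seen. It ran up to 2.32 CPM in room temperature knockouts, while cold knockouts 26, 27, 28 and 29 stood at 57.6 to 200.1 CPM and cold knockouts 24, 25, 30 and 31 at 0.0949 to 1.56 CPM (6.08 ± 1.28, adjusted p = 0.0104). Cold controls were split in the same way, from 0.399 to 200.2 CPM. Reads of near-identical copies could be assigned to either row, and limma with sample weights did not call it (3.73, adjusted p = 0.375).

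Whether the response differed from that of wild-type animals was asked by testing the difference between the cold effects. Controls had 86 calls (0.853%), 60 higher and 26 lower. Of the 139 knockout calls 35 were also called in controls, all in the same direction, which is 25.2% of the knockout calls and 40.7% of the control calls; 126 of the 139 had the same sign in controls, and 121 were larger in size in knockouts, the genotype in which they had been selected. The median change of the 103 higher genes was 0.99 in knockouts and 0.67 in controls, and that of the 36 lower genes was -0.91 and -0.22. Room temperature controls 1 and 2 stood apart, with a summed level of Adipoq, Plin1 and Cidec of 1.13 and 0.73 CPM, the next library of the study being at 15.6 CPM. Without them 38 genes were called in controls and 379 in knockouts, 26 in both, and 20 of the 139 were called in controls. By sign, 101 of the 103 higher genes and 25 of the 36 lower ones moved the same way in controls.

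The difference itself was called for 0 genes by edgeR's quasi-likelihood test, with 737 genes (7.31%) at an unadjusted p under 0.05; DESeq2 called 1 and limma with sample weights 4. For the lipogenic genes the change in controls was 2.13 for Scd, 1.36 for Thrsp, 1.58 for Fasn and -0.07 for Acly, and the differences (knockout minus control) were 2.67, 1.97, 1.56 and 1.04, at unadjusted p = 0.00576, 0.000528, 0.0159 and 0.00189, none passing after adjustment. Without room temperature controls 1 and 2 the differences were 3.07, 2.24, 1.79 and 0.98 (unadjusted p = 0.00114, 6.29e-05, 0.00757 and 0.00501), again with none passing. Without the 7 libraries that scored lowest on the first component they were 2.52, 1.53, 0.82 and 0.63 (unadjusted p = 0.0265, 0.00424, 0.219 and 0.02), so the difference of Fasn was then smaller by over 1.5 times. Of the slow-fibre genes, Myh7 rose in controls by 0.97 and Atp2a2 by 1.07 (adjusted p = 0.00164 and 0.00415), with differences of -0.20 and -0.19 (unadjusted p = 0.375 and 0.461). Ucp2 also rose in controls (1.28, adjusted p = 0.0136 by edgeR), with a difference of 0.61 (unadjusted p = 0.112). Sln passed in neither genotype and changed by 1.80 in controls (adjusted p = 0.114), with a difference of 0.30 (unadjusted p = 0.699). Of the mitochondrial transcripts that fell in knockouts, Mt-nd4l and Mt-nd5 also fell in controls (-1.01 and -0.62, adjusted p = 0.0127 and 0.0237 by edgeR). Mt-atp8 did not pass there (-0.40, adjusted p = 0.434). Transcripts of mitochondrial DNA took a mean of 12.5% of counts in room temperature controls and 10.3% in cold controls. Among other genes that fell in knockouts, Prkaa2 changed by -0.04 in controls, Rnf150 by -0.30, Dusp8 by -0.35 and Esr1 by 0.39. Their differences were -0.91, -0.87, -1.26 and -2.03, each at an adjusted p = 0.452 by edgeR, and these genes had been selected for their change in knockouts. Map3k6, a kinase of the stress-activated cascade picked afterwards, rose in knockouts (1.29 ± 0.27, adjusted p = 0.0089) and changed by 0.12 in controls (1.17, unadjusted p = 0.00368).

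The 5 smallest p-values for the difference were those of Bhlhe41, Ddhd2, Tmem131, Thrsp and Tigd4. Bhlhe41, a repressor of the circadian clock, ran from 7.27 to 14.7 CPM in room temperature knockouts and from 3.76 to 9.81 CPM in cold knockouts (-0.78 ± 0.24, adjusted p = 0.0943) and rose in controls (0.97, adjusted p = 0.0401; 0.80 and 0.146 without room temperature controls 1 and 2), a difference of -1.75 (unadjusted p = 1.24e-05, adjusted p = 0.125). Ddhd2, a phospholipase, Tmem131 and Tigd4 differed by -1.85, -1.74 and -1.80 at levels mostly under 6 CPM. Across all 10082 genes the cold changes of the 2 genotypes had a correlation of 0.35, across genes, which are not independent replicates.

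**Figure D5:**
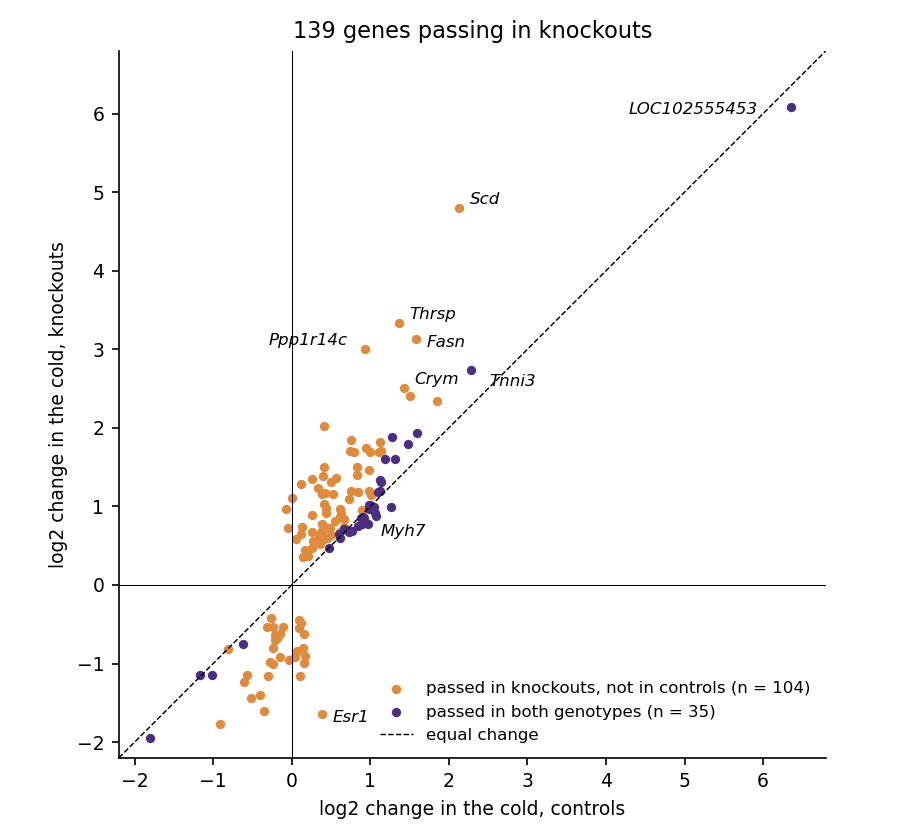
Log2 change in the cold in controls (horizontal axis) and in knockouts (vertical axis) for the 139 genes passing in knockouts, 1 point per gene, with the line of equal change dashed. The 35 genes called in both genotypes (purple) lie near that line, while Scd, Thrsp, Fasn and Crym lie above it; the genes were selected on the vertical axis.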

How the data were processed

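The authors deposited raw counts and a normalized signal for 11289 genes and 31 libraries of 3' tags, and all columns were matched to samples by their labels. Per the submitters' processing notes, build Rnor 6.0 and DESeq2 1.22.2 were used; which aligner, counter and strand setting were used is not given in the sources used here. A normalized signal that the authors deposited is the counts over 1 factor per library and was left untested. The lowest total of a gene over all libraries was 93, so rarer genes had been left out before deposit.

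Genes were kept by edgeR's filterByExpr (version 4.0.16, R 4.3.3; minimum count 10, minimum total 15), which left 10082. Libraries were scaled by TMM, and levels are counts per 1000000 counts (CPM) after scaling. The quasi-likelihood test was fitted to all 4 groups (27 residual degrees of freedom), with p-values adjusted by Benjamini-Hochberg over all genes. Changes are log2 ± SE. On counts simulated for 10077 genes, 31.3%, 64.2% and 95.5% of genes changed by 1.5-, 2- and 4-fold were recovered, and 6 of 133 calls were false. Alternatives used DESeq2 1.42.0, limma 3.58.1, other scalings and filters, and subsets of libraries.

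Symbols came from the deposited table and, by gene number, from RefSeq of GRCr8; 10258 genes were matched. The comparison, its members and the 42 gene lists were chosen with earlier results of these data known. Genes were named by rule: of passing genes with a name that averaged 5 CPM or more, the 30 highest and 30 lowest changes and the 15 smallest p, passing list members, for each list its up to 3 members of smallest p, and a fixed set; the first of these are given, and other names were chosen after their values were seen. The animal labels number separate rats. Library depth was 6.56 to 11.9 M counts. Over 49 pairs of libraries of a group, counts differed by at least 7.16 times the sampling variance. Ucp1 is not analysed here.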

Additional observations from a re-analysis of the deposited data

Results flagged for a closer look

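In 16 of 184 groups of values (92 genes in the 2 knockout groups), 1 animal was separated from its group by a gap that took up more of the range than Dixon's test allows at its 95% level. Gaps and ranges were taken on log2 levels, while the values below are in CPM. Chance separates about 1 group in 20. Among cold knockouts, animal 29 was lowest for Mss51 at 27.4 CPM (next 79.9) and for Enho, the gene of adropin, at 3.37 CPM (next 8.42), and highest for the glycogen branching enzyme Gbe1 at 236 CPM (next 165). Cold knockout 31 was lowest for the slow calcium pump Atp2a2 at 421 CPM (next 897), cold knockout 24 lowest for Dgat2 at 24.1 CPM (next 35.9), and cold knockout 28 highest for the histone Hist1h1e at 7.15 CPM (next 3.41).

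Among room temperature knockouts, animal 10 was lowest for 4 genes: Adipoq at 12.2 CPM (next 17), the acetylcholinesterase Ache at 3.77 CPM (next 7.81), Alas2 at 0.0941 CPM (next 0.905) and the proteoglycan Bgn at 27.1 CPM (next 57.7). Animal 15 was lowest for the kinases Prkaa2 at 18.8 CPM (next 32.6) and Eif2ak1 at 32.9 CPM (next 50.4). Animal 14 was lowest for Prkab1 at 25.2 CPM (next 31.1) and for Slc30a3 at 3.13 CPM (next 7.48). Myoglobin, Mb, was highest in animal 12 at 4275 CPM (next 2774), and Cd163 was highest in animal 9 at 25 CPM (next 18.3).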

How the results depend on the processing

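The 139 calls in knockouts became 53 in the 15 knockout libraries only, 322 with DESeq2, 674 with principal component 1 as a covariate, 536 with limma and sample weights, 571 with the summed Adipoq, Plin1 and Cidec as a covariate (chosen after seeing the data) and 379 without room temperature controls 1 and 2. Leaving out each knockout library in turn gave 56 to 230. The 86 calls in controls became 220, 379, 687, 38 and 38 in the same settings but the first, and 53 without the 7 libraries scoring lowest on that component. The difference between genotypes gave 0 calls with edgeR in all settings, 1 with DESeq2 and 4 with limma. The cause of these shifts was not tested. Of 2368 values of single genes under an alternative, 237 lost and 67 gained a call. The sign turned in 4: Adipoq (-0.02), Cidec (-0.05) and Ryr1 (0.08) under the adipocyte covariate, and Ucp3 (0.01, range -0.30 to 0.01) without room temperature knockout 14. No paired analysis was possible because each animal carries its own number. With 7 and 8 animals, changes near 1.5-fold were mostly missed in simulated counts.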
